A study of Homo sapiens with 8 samples.

Results

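Notch is a signaling pathway between touching cells. The genes described are 10 of its members, the receptors NOTCH1, NOTCH2 and NOTCH3, the ligands JAG1, JAG2 and DLL1, the nuclear factors RBPJ and MAML1, and the target genes HES1 and HEY1. They were taken by name, with earlier results of these data known. Every probe set whose only gene symbol was one of them was kept, which gave 35 of the 49293 probe sets tested and 10 of the 18239 genes. The RNA came from SAS-L1, HSC2, HSC3 and Ca9-22, which are established cell lines grown from human oral squamous cell carcinoma (OSCC). Each line was reverse transfected with 20 nM of a miR-375 mimic or with 20 nM of miR-NT, a control mimic without a target, and total RNA was extracted at 48 h and measured on 1 Affymetrix Human Genome U219 array per line and condition. The miR-NT cells were thus also exposed to the transfection and to a control mimic, and untransfected cells were not analysed here.

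A ligand on one cell binds a Notch receptor on its neighbour, and the pull lets the proteases ADAM10 and gamma-secretase cut the receptor. The freed intracellular part enters the nucleus, binds the DNA-binding protein RBPJ and recruits the coactivator MAML1, and genes such as HES1 and HEY1 are switched on. Without the receptor's intracellular part, RBPJ holds corepressors at the same sites. In stratified squamous epithelium Notch is known to promote differentiation, and in squamous carcinomas the receptor genes often carry inactivating mutations.

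The mature miR-375-3p is shown because it is what the mimic supplies. It is 22 bases long in RefSeq, from chr2:219001648-219001669 on the minus strand of GRCh38.p14, and the capitals mark its seed, bases 2 to 8, with which a miRNA pairs to its targets. Target sites in the Notch transcripts were not searched here.
miR-375-3p: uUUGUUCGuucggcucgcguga
The start of HES1 is shown because RBPJ binds the letters TGGGAA, and RBPJ and HES1 both changed with the mimic. In the window from 250 bases before to 50 bases after each gene's start in RefSeq (GRCh38.p14), TGGGAA was searched on both strands. HES1 held 2 matches, marked by capitals, which begin 84 and 70 bases before its start. The 30 bases shown are chr3:194136059-194136088 on the plus strand.
HES1: tactgTGGGAAagaaagttTGGGAAgtttc
Windows were read for 8 of the 10 genes, all but DLL1 and HEY1. Matches were found in HES1 and in 1 of the 5 windows of RBPJ, which also held 2. Thus 2 of the 12 windows of these genes, or 16.7%, held 2 or more. Of all 35116 windows, 24% held at least 1 match and 3.8% held 2 or more, so a match is common and is only a description of the letters.

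The deposited values are log2 signals, so a difference of 1 is a 2-fold change. The probe set that was brightest on average over the 8 arrays stands for a gene, and the remaining ones are given beside it. Differences are the mimic minus miR-NT within a line, averaged over 4 lines and given with the SD. The test was a linear model in limma that treats the cell line as a block, with Benjamini-Hochberg adjustment over 18239 genes, or over 49293 probe sets for statements on a single probe set other than the brightest. The words rose and fell are used only for an adjusted p under 0.05. With 1 array per line and condition no line can be tested by itself, and the p-values measure the spread of the differences between lines. In bulk RNA, fewer cells with a transcript and less of it per cell cannot be told apart.
Over the 4 lines, RBPJ, DLL1 and JAG2 fell and HES1 and MAML1 rose. That is 3 of 10 genes lower, where 5.19% of all genes were lower, and 2 of 10 higher, where 7.35% of all genes were higher. Since the genes were chosen with earlier results of these data known, this and later counts of members beside a share are only a description. Over the 10 genes the log2 difference had a median of -0.13, against 0.03 over all genes. JAG1, NOTCH1, NOTCH2, NOTCH3 and HEY1 did not pass the test in the brightest probe set. Without the cell line as a block, none of the 10 genes passed in limma, with 3 lower and 1 higher at an unadjusted p under 0.05. By probe set, 7 of 35 fell and 3 rose, against 5.25% and 5.81% of all probe sets. The falls included 3 probe sets of RBPJ and 2 of JAG1, and the rises 1 of HEY1. Probe sets of the same gene are repeated readings of it, so these counts are not counts of separate genes. Whatever the test, 11 of the 35 were lower in all 4 lines and 4 were higher in all 4, against 12.8% and 19.3% of all probe sets. Of the 18 member probe sets dimmer than 5.01, the median of all probe sets, 2 passed the test, against 8 of the 17 brighter ones. Of these 8, 3 were of RBPJ. The shares of all dim and all bright probe sets that passed were not counted, so the contrast cannot be ascribed to the members.

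**Figure D1:**
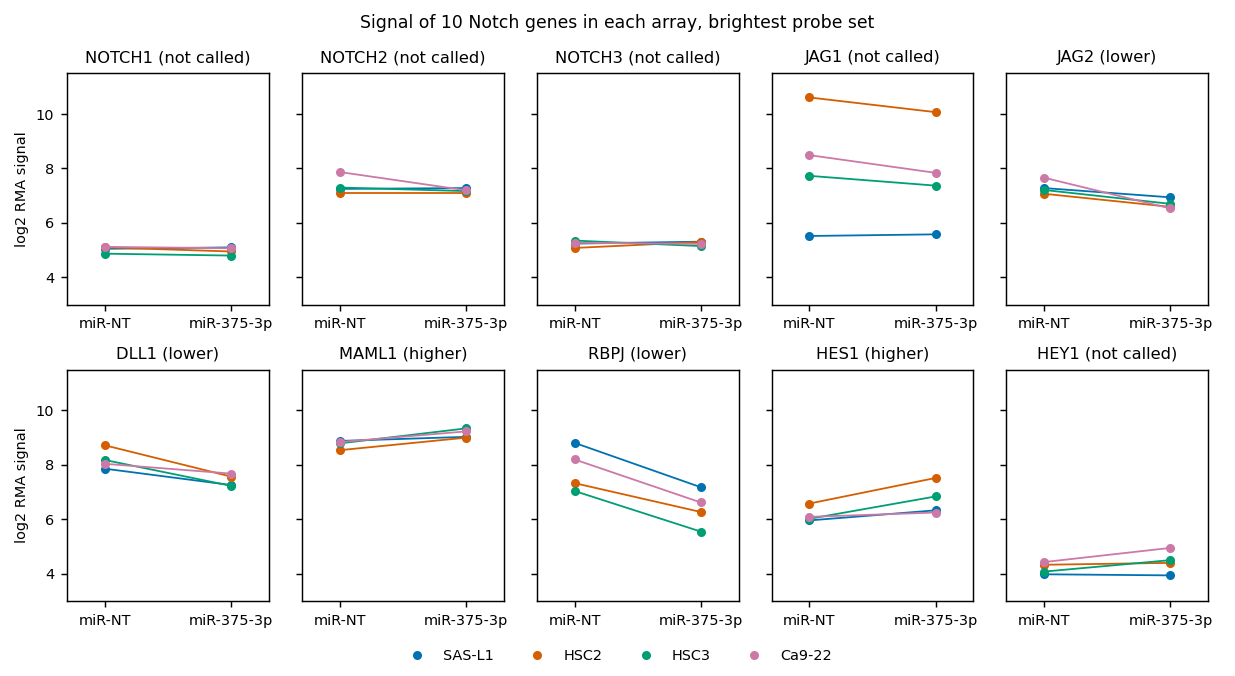
Log2 RMA signal (y axis) of the 10 Notch genes in each of the 8 arrays, brightest probe set, with the miR-NT array and the miR-375-3p array of a cell line joined by a line. RBPJ falls in parallel in all 4 lines, with log2 differences of -1.06 to -1.63, and the JAG1 lines lie far apart, from 5.52 in SAS-L1 to 10.61 in HSC2 in the miR-NT arrays.

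RBPJ, the DNA-binding protein through which all Notch receptors act, showed the largest change of the 10 genes. Its signal in the miR-NT arrays was 8.20 in Ca9-22, 7.33 in HSC2, 7.04 in HSC3 and 8.81 in SAS-L1. In the mimic arrays it was 6.62, 6.27, 5.55 and 7.18 in the same order. Every line was lower with the mimic, although the conditions overlapped, since the mimic array of SAS-L1 lay above the miR-NT array of HSC3. The mean log2 difference of RBPJ was -1.44 ± 0.26 (SD over 4 cell lines, limma adjusted p = 0.00374), a 2.72-fold fall. By line the fall was 3.01-fold in Ca9-22, 2.09-fold in HSC2, 2.80-fold in HSC3 and 3.10-fold in SAS-L1. By size it was number 61 of the 946 genes that fell. The fall passed the test without any 1 of the lines, with log2 differences of -1.38 to -1.57.
The next 2 probe sets of RBPJ in brightness fell further. The second went from 7.86 to 6.10 in Ca9-22, from 7.07 to 5.23 in HSC2, from 6.67 to 4.62 in HSC3 and from 8.51 to 6.52 in SAS-L1. In it no mimic array reached the lowest miR-NT array, a pattern whose share over all probe sets was not counted. The log2 difference of the second probe set was -1.91 ± 0.13 (adjusted p = 0.00148), a 3.76-fold fall. The third fell by 1.93 ± 0.34 on the log2 scale (adjusted p = 0.00384), or 3.80-fold. The other 3 probe sets of RBPJ did not pass the test and were dim, with mean signals of 4.45, 4.04 and 3.38 and log2 differences of 0.12, -0.36 and -0.31. The first quartile over all probe sets lay at 3.89.
MAML1, the coactivator that joins RBPJ and the cut receptor on DNA, moved the other way. Its miR-NT signals were 8.84 in Ca9-22, 8.54 in HSC2, 8.79 in HSC3 and 8.88 in SAS-L1, and its mimic signals were 9.23, 9.0, 9.34 and 9.03. All mimic arrays lay above all miR-NT arrays, which held for 1.94% of all genes. The mean log2 difference of MAML1 was 0.39 ± 0.18 (limma adjusted p = 0.0322), a 1.31-fold rise. Leaving out HSC2, HSC3 or Ca9-22 ended the call (adjusted p = 0.125, 0.101 and 0.0966). Its only other probe set was dim, at 4.52, with a log2 difference of 0.00 ± 0.11, and the mean of both did not pass (0.19, adjusted p = 0.128).

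**Figure D2:**
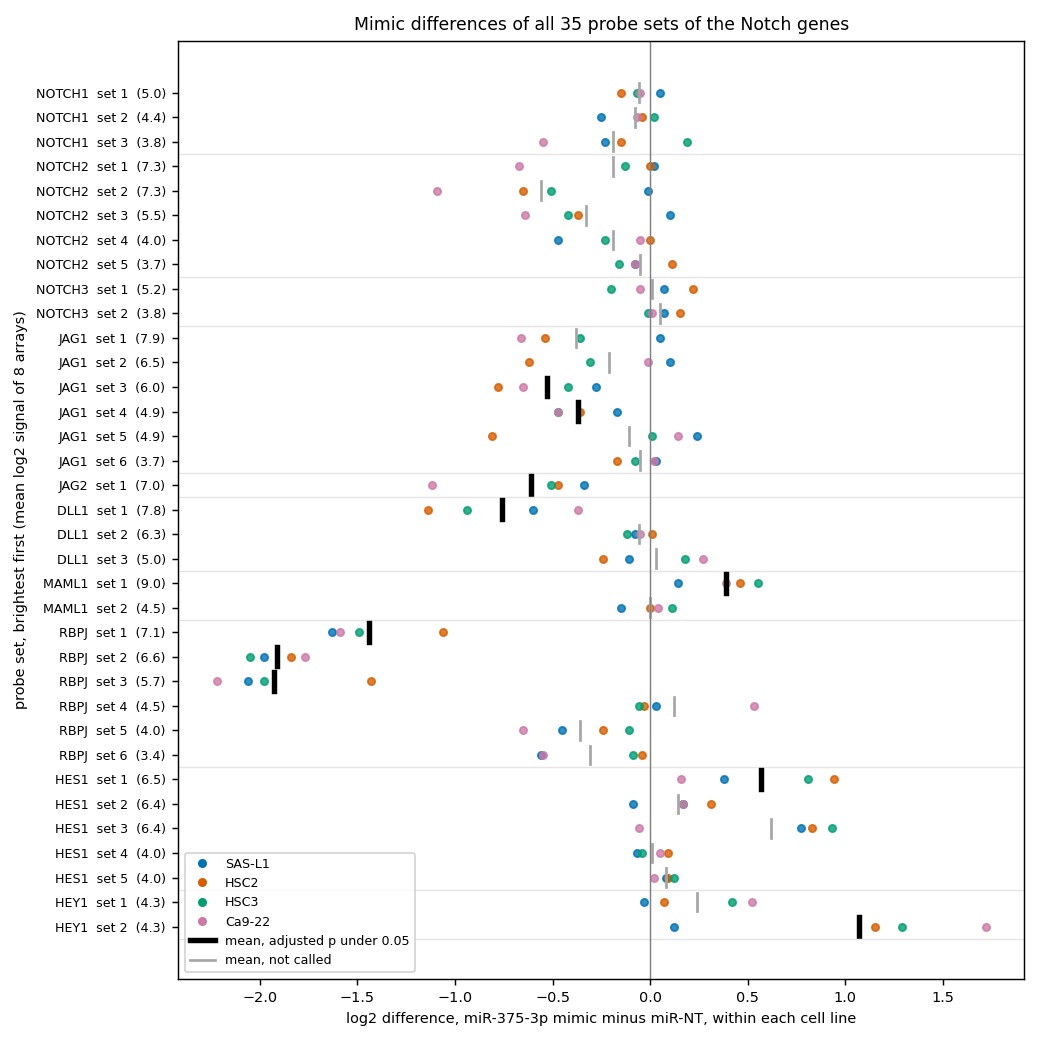
Log2 difference, mimic minus miR-NT (x axis), of all 35 probe sets (y axis, brightest first within a gene, with the mean signal of the 8 arrays in brackets), with a dot for each cell line and a bar at the mean, black where the adjusted p was under 0.05. The 3 brighter RBPJ probe sets lie at -1.44 to -1.93, and the second HEY1 probe set, at 1.07, is the highest mean.

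DLL1, a ligand of the Delta class, was lower with the mimic in every line. Its miR-NT signals were 8.04 in Ca9-22, 8.72 in HSC2, 8.18 in HSC3 and 7.86 in SAS-L1, and its mimic signals were 7.68, 7.57, 7.23 and 7.26. The conditions did not overlap, as also for JAG2, and 1.94% of all genes were non-overlapping and lower. The mean log2 difference of DLL1 was -0.76 ± 0.35 (limma adjusted p = 0.0185), a 1.70-fold fall. Leaving out HSC2 (-0.64, adjusted p = 0.0649) or HSC3 (-0.71, 0.0603) ended the call. The other 2 probe sets of DLL1, at mean signals of 6.29 and 5.00, had log2 differences of -0.06 ± 0.06 and 0.03 ± 0.24, so the fall was seen in 1 of 3 probe sets. Taken as the mean of the 3, DLL1 did not pass (-0.27, adjusted p = 0.0750).
JAG2, a ligand of the Jagged class, went from 7.66 to 6.53 in Ca9-22, from 7.07 to 6.59 in HSC2, from 7.21 to 6.70 in HSC3 and from 7.28 to 6.94 in SAS-L1. Ca9-22 had the highest signal with miR-NT and the lowest with the mimic. The mean log2 difference of JAG2 was -0.61 ± 0.35 (limma adjusted p = 0.0339), a 1.53-fold fall. Leaving out HSC2 (adjusted p = 0.0994) or HSC3 (0.0794) ended the call, while leaving out Ca9-22 kept it with a log2 difference of -0.44 (0.0379). JAG2 had a single probe set, so no other reading of it could be set beside this one.
JAG1, the other Jagged ligand, did not pass in its brightest probe set. Its log2 difference there was -0.66 in Ca9-22, -0.54 in HSC2, -0.36 in HSC3 and 0.05 in SAS-L1. The mean was -0.38 ± 0.31 (limma adjusted p = 0.104, 95% interval -0.67 to -0.08). SAS-L1 stood apart as the line with the lowest JAG1 signal. Without it the difference was -0.52 and passed the test (adjusted p = 0.0304).
In 2 dimmer probe sets of JAG1, with mean signals of 6.05 and 4.88, all 4 lines were lower and both fell. The brighter of the pair went from 6.26 to 5.61 in Ca9-22, from 8.51 to 7.73 in HSC2, from 5.87 to 5.45 in HSC3 and from 4.62 to 4.33 in SAS-L1, a log2 difference of -0.53 ± 0.22 (adjusted p = 0.0210). The dimmer one fell by 0.37 on the log2 scale (adjusted p = 0.0283). Leaving out HSC2, HSC3 or Ca9-22 ended the call of the brighter (adjusted p = 0.0761, 0.0532 and 0.0733) and of the dimmer (0.101, 0.0972 and 0.0947). The other 3 probe sets had mean differences of -0.21, -0.11 and -0.05. Counted by any of its probe sets, 4 of the 10 genes fell, where 6.59% of all genes did.

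HES1, a repressor of transcription and the best known Notch target, was higher with the mimic. Its brightest probe set went from 6.09 to 6.25 in Ca9-22, from 6.58 to 7.52 in HSC2, from 6.02 to 6.84 in HSC3 and from 5.96 to 6.33 in SAS-L1. Each line was higher with its own mimic, and HSC2 and HSC3 moved the most. The mean log2 difference of HES1 was 0.57 ± 0.36 (limma adjusted p = 0.0461), a 1.49-fold rise. This is close to the threshold. Leaving out SAS-L1, HSC2 or HSC3 ended the call (adjusted p = 0.0769, 0.151 and 0.138), as did subtracting the array medians (0.0564).
The third probe set of HES1 did not pass, at a log2 difference of 0.62 ± 0.46 (adjusted p = 0.0683), with Ca9-22 at -0.06 while HSC3, HSC2 and SAS-L1 were at 0.93, 0.83 and 0.77. Without Ca9-22 its difference was 0.84 (adjusted p = 0.0205). The second probe set, of the type _x_at that can bind related transcripts, had a log2 difference of 0.14 ± 0.17, and the 2 dim ones had 0.01 and 0.08. The mean of all 5 did not pass (0.28, adjusted p = 0.0687). By their names, the third probe set of HES1 and the brightest ones of RBPJ, MAML1 and JAG1 are of the type _s_at. Whether any of these probe sets bound other transcripts was not tested.
HEY1, a related repressor and Notch target, differed between its probe sets, whose mean signals were nearly the same. The first, at a mean of 4.33, had a log2 difference of 0.24 ± 0.27 (limma adjusted p = 0.222, 95% interval -0.02 to 0.51). The second, at 4.26, went from 4.55 to 6.27 in Ca9-22, from 3.45 to 4.61 in HSC2, from 3.84 to 5.13 in HSC3 and from 3.06 to 3.18 in SAS-L1. SAS-L1 hardly moved and stayed near the lower end of the scale, whereas the other lines were 1.15, 1.29 and 1.72 higher on the log2 scale. The second probe set rose 2.10-fold on the mean, with a log2 difference of 1.07 ± 0.68 (adjusted p = 0.0405 over all probe sets). Leaving out HSC2, HSC3 or Ca9-22 ended the call (adjusted p = 0.147, 0.121 and 0.109), and leaving out SAS-L1 gave a difference of 1.39 (0.00925). Counted by any of its probe sets, 3 of the 10 genes rose, HEY1 among them, where 9.29% of all genes did.

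None of the receptor genes passed the test, nor did any of their 10 probe sets in limma, of which 2 were lower and 0 higher at an unadjusted p under 0.05. NOTCH1, a receptor that acts in keratinocyte differentiation, had signals of 4.87 to 5.12 with miR-NT and 4.80 to 5.10 with the mimic, and a log2 difference of -0.06 ± 0.08 (limma adjusted p = 0.667, 95% interval -0.20 to 0.09). NOTCH3 had signals of 5.08 to 5.35 with miR-NT and 5.15 to 5.31 with the mimic, and a difference of 0.01 ± 0.18 (adjusted p = 0.962, interval -0.19 to 0.21). The sign of NOTCH3 flipped with other scalings of the arrays, to -0.01 and -0.02. The arrays of the conditions overlapped for both genes. Both were dim, with mean signals of 5.01 for NOTCH1 and 5.24 for NOTCH3, below 5.56, the median of all genes. Whether a change was hidden by the dim signal was not tested.
NOTCH2 had a log2 difference of -0.67 in Ca9-22, 0.00 in HSC2, -0.13 in HSC3 and 0.02 in SAS-L1 in its brightest probe set (mean -0.19 ± 0.33, limma adjusted p = 0.421, 95% interval -0.50 to 0.11). Its second probe set, nearly as bright, went from 8.25 to 7.16 in Ca9-22, from 7.07 to 6.43 in HSC2, from 7.51 to 7.0 in HSC3 and from 7.33 to 7.32 in SAS-L1. That is a log2 difference of -0.56 ± 0.44, which did not pass (adjusted p = 0.0826) except without SAS-L1 (-0.75, adjusted p = 0.0316). Ca9-22 had the lowest difference of NOTCH2 in both probe sets.

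Within single lines, without a test, the lists of genes past 1.5-fold in the brightest probe set differed. DLL1 and RBPJ were lower by that much in SAS-L1, HSC2 and HSC3, and RBPJ, JAG1, JAG2 and NOTCH2 were lower in Ca9-22. In Ca9-22 that is 4 of 10 genes, where 5.19% of all genes were as much lower. In the other lines it is 2 of 10, where the share of all genes was 5.65% in HSC3, 3.59% in HSC2 and 2.43% in SAS-L1. HES1 was 1.91-fold higher in HSC2 and 1.76-fold higher in HSC3, where 3.33% and 5.93% of all genes were 1.5-fold higher. None of the 10 was that much higher in SAS-L1 or Ca9-22, where 2.48% and 4.64% of all genes were. In other probe sets, HEY1 was 3.30-fold higher in Ca9-22 and HES1 was 1.71-fold higher in SAS-L1. RBPJ was the only one of the 10 to pass 1.5-fold in each of the 4 lines, as 1.2% of all genes did in the lower direction and 0.367% in the higher.

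The levels of the 10 genes were then compared between the lines. Each line has 2 arrays, 1 per condition, and limma tested the cell line with the condition as a block. The line means average both conditions, so a mimic difference that is unequal between lines enters them. JAG1, RBPJ, HES1 and HEY1 differed between lines, 4 of 10 genes, where 42.7% of all genes did. So the lines differ widely in general, and the count of members is not above it. For the other 6 genes the adjusted p of the line was 0.141 or more.
JAG1 varied most. In the miR-NT arrays its signal was 10.61 in HSC2, 8.49 in Ca9-22, 7.73 in HSC3 and 5.52 in SAS-L1, a span of 5.09 on the log2 scale or 34-fold. A span of 16-fold or more was seen in 0.669% of all genes and one of 4-fold or more in 4.68%, and JAG1 was the only member in either. Only JAG1 and RBPJ of the members spanned 2-fold or more, as 20.6% of all genes did. With the mimic the order was the same, at 10.07, 7.84, 7.37 and 5.58. The line passed the test (adjusted p = 1.02e-04), and all 6 pairs of lines differed, the closest being HSC3 and Ca9-22 (log2 difference -0.61, adjusted p = 0.0427), a pair in which 27.6% of all genes differed. Of all genes, 26% differed between SAS-L1 and HSC2, 23% between SAS-L1 and HSC3, 25.5% between SAS-L1 and Ca9-22, 22% between HSC2 and HSC3, and 23% between HSC2 and Ca9-22. In the miR-NT arrays HSC2 was highest and SAS-L1 lowest in all 6 probe sets of JAG1, but the second brightest set spread only from 6.17 to 7.53.

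**Figure D3:**
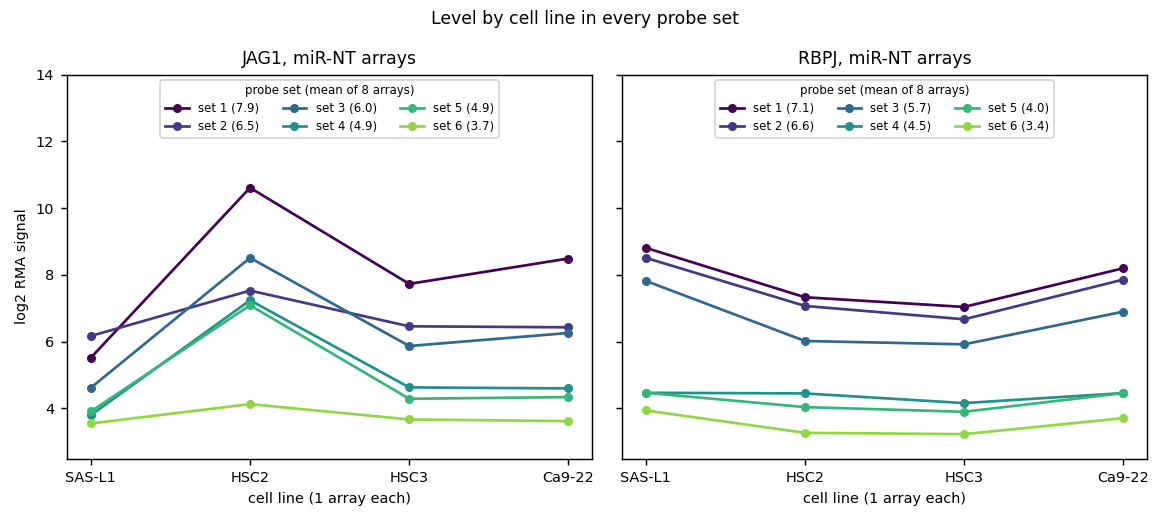
Log2 RMA signal (y axis) in the miR-NT array of each cell line (x axis) for the 6 probe sets of JAG1 and the 6 of RBPJ, 1 array per point, with lines joining the points of a probe set. HSC2 is highest and SAS-L1 lowest in each JAG1 probe set, whereas SAS-L1 is highest in the RBPJ probe sets that are bright.

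RBPJ ran in another order, highest in SAS-L1, then Ca9-22, HSC2 and HSC3, in both conditions. Its miR-NT signals spanned 1.77 on the log2 scale, or 3.40-fold. The line passed the test (adjusted p = 0.00126). All pairs differed except HSC2 and HSC3 (log2 difference 0.50, adjusted p = 0.0600). The mimic arrays of SAS-L1 and Ca9-22, at 7.18 and 6.62, thus lay near the miR-NT arrays of HSC2 and HSC3, at 7.33 and 7.04.
HES1 was highest in HSC2, with 6.58 in the miR-NT array, while Ca9-22, HSC3 and SAS-L1 had 6.09, 6.02 and 5.96. HSC2 differed from SAS-L1 (log2 difference of the line means 0.91, adjusted p = 0.0170) and from Ca9-22 (0.88, adjusted p = 0.0214), and HSC2 and HSC3 did not differ beyond the spread (0.62, adjusted p = 0.0700). The line call of HES1 was lost without HSC2 (adjusted p = 0.419). HEY1 was highest in Ca9-22 and lowest in SAS-L1, the 1 pair that differed (SAS-L1 minus Ca9-22 -0.73 on the log2 scale, adjusted p = 0.0161). The line call of HEY1 was lost without SAS-L1 (0.135) or Ca9-22 (0.124). HEY1 was dim, with a mean signal of 4.33 in its brightest probe set, below 5.56, the median of all genes. NOTCH1, NOTCH2, NOTCH3, JAG2, DLL1 and MAML1 had no pair of lines that passed the test. Their miR-NT signals spanned 0.25, 0.76, 0.27, 0.59, 0.86 and 0.34 on the log2 scale. Those of HES1 and HEY1 spanned 0.63 and 0.45, less than the largest differences of their line means.
For the members that spanned more than 1 on the log2 scale over the 8 arrays, the genes of most similar pattern were looked up among genes brighter than the median. Pearson's r over the 8 arrays is given as a description, since the arrays share 4 lines and 2 conditions and the highest of many genes was taken. JAG1 was nearest to EGFR (r = 0.990) and RGS9 (0.988), and RBPJ to LUC7L3 and NOM1 (both 0.971). HES1 was nearest to EXD2 (0.988) and RANGRF (0.976), HEY1 to ZNF428 (0.977) and TMEM185A (0.974), and JAG2 to JPT1 (0.982) and PEBP1 (0.978). DLL1 was nearest to ITCH (0.933), another gene of the pathway, and PDS5B (0.928).

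A list of 55 other Notch pathway genes, also chosen with earlier results of these data known, was set beside them. Of the 55, 51 were measured and 4 not analysed here. Of the 51, 5 were called lower with the mimic, 5 were called higher and 41 were not called, where 5.19% and 7.35% of all genes were lower and higher. Their median log2 difference was 0.08, against 0.03 over all genes. The falls were in CTBP2 and in genes that control the turnover of Notch proteins. The rises were in HES6, in cofactors and in proteases.
Among corepressors, CTBP2, a partner of repressing complexes on DNA, went from 8.50 to 7.36 in Ca9-22, from 9.41 to 8.09 in HSC2, from 9.49 to 8.11 in HSC3 and from 10.06 to 9.03 in SAS-L1. Its mean log2 difference was -1.22 ± 0.16 (limma adjusted p = 0.00274), a 2.33-fold fall, and all 7 of its probe sets fell. SPEN, a corepressor that binds RBPJ directly, was 1.29-fold higher (0.37 ± 0.15, adjusted p = 0.0295), and 1 of its 3 probe sets passed. The call of SPEN was lost without SAS-L1 (0.0823), HSC3 (0.0983) or Ca9-22 (0.0982). The other 4 corepressors measured did not pass.
Of 12 genes of ubiquitin transfer and endocytosis, 4 fell and none rose, where 5.19% of all genes fell and 7.35% rose. The 4 are NUMB, ITCH, FBXW7 and DTX4. The calls of FBXW7 and DTX4 were lost in fits with 1 line left out, and the group itself was not tested. NUMB, an adaptor that restrains Notch by promoting its endocytosis, went from 7.16 to 6.20 in Ca9-22, from 7.66 to 6.79 in HSC2, from 7.89 to 6.84 in HSC3 and from 7.73 to 7.01 in SAS-L1. Its mean log2 difference was -0.90 ± 0.14 (limma adjusted p = 0.00429), a 1.87-fold fall. The conditions of NUMB did not overlap, and 1.94% of all genes were non-overlapping and lower. Of the 6 probe sets of NUMB 5 fell. ITCH, a ubiquitin ligase that acts on Notch receptors, fell 1.46-fold (log2 difference -0.55 ± 0.05, adjusted p = 0.00588), with values between -0.59 and -0.48 in the lines, and all 4 of its probe sets fell. The falls of CTBP2, NUMB and ITCH passed the test without any 1 of the lines.
FBXW7, the ligase subunit that marks the receptor's intracellular part for destruction, was 1.24-fold lower (log2 difference -0.31 ± 0.12, limma adjusted p = 0.0354), and DTX4, a ubiquitin ligase of the Deltex family, was 1.37-fold lower (-0.45 ± 0.27, adjusted p = 0.0442). FBXW7 did not pass without SAS-L1 (0.0861), HSC2 (0.128), HSC3 (0.0579) or Ca9-22 (0.107), nor when its probe sets were averaged (-0.22, adjusted p = 0.188) or under a robust trended variance (0.0667), and 1 of its 3 probe sets passed. DTX4 did not pass without SAS-L1 (0.120), HSC2 (0.162) or Ca9-22 (0.135).

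**Figure D4:**
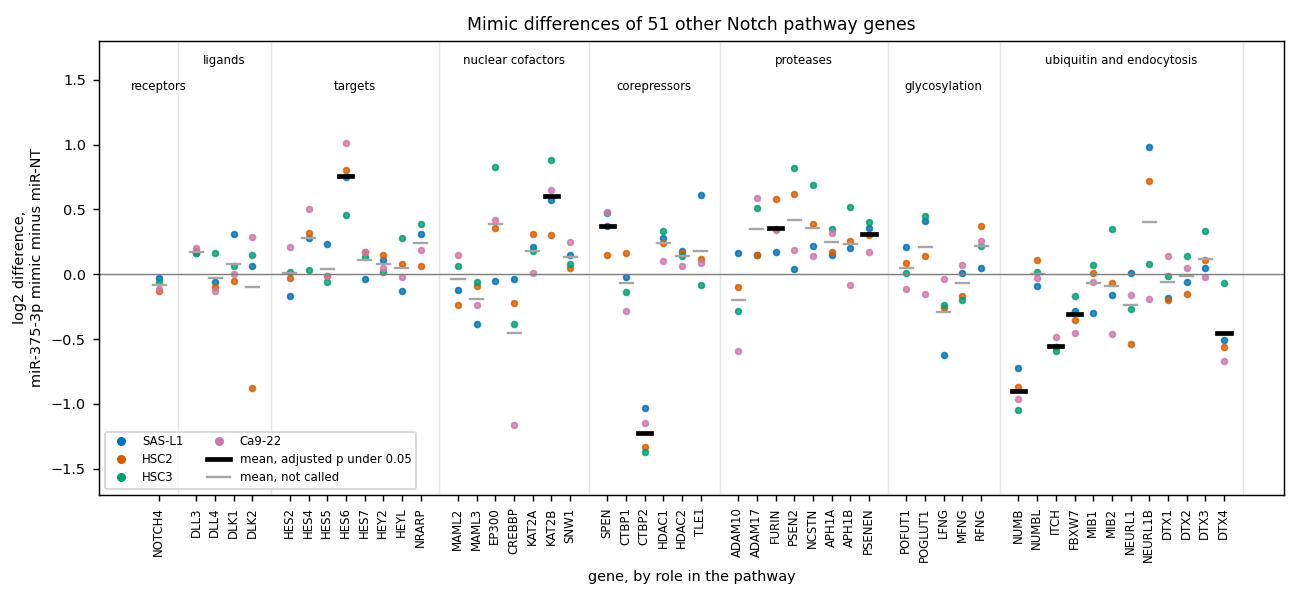
Log2 difference, mimic minus miR-NT (y axis), of 51 other Notch pathway genes (x axis, grouped by role), with a dot for each cell line and a bar at the mean, black where the adjusted p was under 0.05. CTBP2, at -1.22, and NUMB, at -0.90, are the lowest means, and HES6, at 0.76, is the highest.

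Of 8 further HES, HEY and NRARP genes, only HES6 rose, where 7.35% of all genes did. HES6, which in mouse cells is known to counteract HES1, went from 5.39 to 6.41 in Ca9-22, from 6.05 to 6.85 in HSC2, from 4.36 to 4.82 in HSC3 and from 5.06 to 5.81 in SAS-L1. Its mean log2 difference was 0.76 ± 0.23 (limma adjusted p = 0.00837), a 1.69-fold rise, and it just missed the threshold without HSC2 (0.0504). NRARP, a feedback inhibitor and direct Notch target, had a log2 difference of 0.24 ± 0.14 (adjusted p = 0.0898), and HES4 had 0.28 ± 0.19 (0.0901). Both are named here after their values were seen, and both were higher in all 4 lines, as 20.9% of all genes were.
KAT2B, an acetyltransferase recruited with MAML1, was 1.51-fold higher (log2 difference 0.60 ± 0.24, limma adjusted p = 0.0163), in 1 of its 3 probe sets, and was lost without Ca9-22 (0.0592). Of 8 proteases and gamma-secretase subunits, 2 rose, where 7.35% of all genes did, and the group itself was not tested. FURIN, which cuts the receptor during its maturation, was 1.28-fold higher (0.36 ± 0.17, adjusted p = 0.0365). PSENEN, a subunit of gamma-secretase, was 1.24-fold higher (0.31 ± 0.10, adjusted p = 0.0323). The call of FURIN was lost without HSC2 (0.111), HSC3 (0.0992) or Ca9-22 (0.101), and that of PSENEN without SAS-L1 (0.0972), HSC2 (0.110), HSC3 (0.110) or Ca9-22 (0.0506). With a robust trended variance neither passed (0.0560 and 0.0607). In their brightest probe sets NCSTN, APH1A and APH1B, further subunits of gamma-secretase, did not pass (adjusted p = 0.0695, 0.0611 and 0.227). Each had another probe set that rose, a count by any probe set made after the data were seen, by which 9.29% of all genes rose. Of the other receptor, NOTCH4, the other 4 ligands and the 5 glycosylation genes, none passed in limma, with 1 lower and 2 higher at an unadjusted p under 0.05.

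Array medians ran from 4.96 to 5.00 over the 8 arrays, which the quantile normalization in RMA makes nearly equal. Of 8 squamous epithelial markers 5 were measured, all with a mean above 5.56, the median of all genes, with KRT14 ranging from 4.05 to 11.28. KRT5 and SFN fell with the mimic (log2 differences -1.73 and -0.43, limma adjusted p = 0.0320 and 0.0293). KRT14 (-0.94, adjusted p = 0.074), CDH1 (0.00, 0.997) and EPCAM (0.39, 0.122) did not pass, and EPCAM lay in the other direction. The summed signal of the 5 ran from 12.29 to 13.31 on the log2 scale with miR-NT and from 11.95 to 12.99 with the mimic. Their part in the Notch results was not tested. The 7 fibroblast and 5 endothelial markers all had means of 5.55 or less, below that median, and so did 4 of 5 immune markers, the exception being CD68, a lysosomal protein, with a median signal of 6.37. PTPRC, which defines leukocytes, stayed between 3.15 and 3.31. The adjusted p of all of these was 0.316 or more in limma.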

How the data were processed

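The authors labeled total RNA, hybridized 8 Affymetrix Human Genome U219 arrays and deposited log2 signals computed by RMA, a method of background correction, quantile normalization and summary over probes. Scanner files were not used here. The table held 49386 probe sets, 93 of them controls, which were left out. Symbols came from the platform's annotation, updated by gene identifier to RefSeq (GRCh38.p14), which matched 45172 of 45253 probe sets with 1 symbol. Those with several symbols entered no gene.

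Tests used limma 3.58.1 in R 4.3.3 (lmFit, eBayes), two-sided, without a filter on dim signals. Both arrays of a pair come from one cell line, and after subtraction of condition means they correlated at 0.836 to 0.886 across genes. The number of arrays limits the precision.

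The members and lists were chosen with earlier results of these data known. Named were all 10 members, the other pathway genes past the threshold, and the 2 genes of most similar pattern per member. Alternatives were no block, averaging of probe sets, 2 scalings, removal of dim genes, a trended robust variance, leaving out each line, the t-test of the methods and a fold threshold. A count by any probe set of a gene was chosen after seeing the data.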

Additional observations from a re-analysis of the deposited data

Results flagged for a closer look

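One probe set outside the 35 is given here because it rose although it entered no gene. It names NOTCH2 together with NOTCH2NLA, a partial copy of NOTCH2, so the transcripts of the 2 genes cannot be told apart in it. Its signal went from 6.27 to 6.62 in Ca9-22, from 5.32 to 5.74 in HSC2, from 7.70 to 8.38 in HSC3 and from 7.82 to 8.10 in SAS-L1. The log2 difference was 0.44 ± 0.18 (SD, n = 4 cell lines; limma adjusted p = 0.0245 over all probe sets). A brighter probe set with the same names had a difference of 0.33 ± 0.21 and did not pass (adjusted p = 0.0751), and a dim one had -0.03 ± 0.17. The 5 probe sets that name NOTCH2 alone had mean differences of -0.05 to -0.56 and none passed. Over the 4 lines of a condition and over the 4 differences, no member's brightest probe set held an outlying value in the 30 sets of values examined, where chance gives about 1.5.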

How the results depend on the processing

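The main counts were 3 members lower and 2 higher. Without the replicate block (the cell line), limma called 0 members lower and 0 higher (unadjusted p under 0.05: 3 and 1) and 0 of the other pathway genes in either direction (unadjusted: 3 and 1). By probe set it called 0 lower and 0 higher, with 6 and 1 unadjusted, against 7 and 3 with the block. The methods' t-test, which is unpaired, gave 0 and 0 members and 0 and 0 other pathway genes after Benjamini-Hochberg; unadjusted it gave 3 and 1 in each list. With the block, 5 and 5 other pathway genes passed after adjustment, and unadjusted it was 9 and 16, and 4 and 2 members. In the levels by line, 1 member, JAG1, differed without the condition term, against 4 with it. With the mean of probe sets 0 members were higher (3 unadjusted), and with array medians subtracted 1 was. With a 1.5-fold threshold beside the adjusted p, 0 members were higher, since both rises were smaller, and 2 other genes were lower and 2 higher. Counted by any probe set, 8 other genes were higher. With 1 line left out, 1 to 4 members were lower and 0 to 1 higher (2 unadjusted where it was 0), 3 to 4 other genes lower and 1 to 4 higher, and 3 to 9 member probe sets lower and 0 to 2 higher (4 unadjusted where it was 0). Such fits have fewer arrays. Within lines, 10 member and line pairs were 1.5-fold lower and 2 higher. At 2-fold these were 6 and 0, and with the mean of probe sets 5 were lower and 3 higher. NOTCH3 changed sign with array medians subtracted (-0.01), with quantile normalization (-0.02) and without SAS-L1 (-0.01) or HSC2 (-0.06). Of 220 single values for the 20 named genes under an alternative, 148 kept their side of the threshold and their direction, 67 lost the call, 1 gained it and 4 changed sign. How far dim signals limit a fall was not tested.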
